A study of Homo sapiens with 32 samples.

Results

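Genes of glucose breakdown and of the response to low oxygen were followed in K-562, a suspension line from human chronic myeloid leukemia, after it had become resistant to an inhibitor of the BCR fusion kinase that drives it. The set was a list of 40 gene symbols, and a gene counted as measured where a named array feature carried its symbol. That held for 20 of the 40, out of 14884 named genes on the array. They were 9 of 16 glycolytic enzymes (HK1, HK2, GPI, TPI1, GAPDH, PGK1, PGAM1, LDHA and LDHB), 3 of 4 genes for the oxygen-regulated transcription factor and its hydroxylases (EPAS1, EGLN1 and EGLN3), and 8 of 11 of its target genes (VEGFA, ADM, ANKRD37, BNIP3, BNIP3L, NDRG1, KDM3A and MXI1). The 4 glucose and lactate transporters (SLC2A1, SLC2A3, SLC16A1 and SLC16A3) and the 5 flux regulators (PFKFB2, PFKFB3, PFKFB4, PDK1 and PDK3) were not analysed here, nor were PFKL, PFKM, PFKP, ALDOA, ALDOC, ENO1, ENO2, HIF1A, CA9, P4HA1 and P4HA2.

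Glycolysis splits glucose into pyruvate in the cytosol, and lactate dehydrogenase turns pyruvate into lactate, which lets the pathway run when mitochondria cannot take up its product. Hypoxia-inducible factor (HIF) is a pair of proteins whose alpha subunit is hydroxylated by prolyl hydroxylases while oxygen is plentiful, and is then marked by the VHL protein for destruction. When oxygen falls, the alpha subunit persists and raises glycolytic enzymes, vascular growth factors, mitophagy receptors and the hydroxylases themselves. BCR-ABL1 signalling is known to raise glucose use in chronic myeloid leukemia cells.

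The low-imatinib lines resist 0.5 µM imatinib, the high-imatinib lines resist 2 µM imatinib and the nilotinib lines resist 0.1 µM nilotinib; they were set against naive cells, which had not been made resistant. Each resistance was reached by stepwise increases of the drug and has 2 lines, which the design text treats as biological replicates, and each line was hybridised on 4 technical replicate arrays. The naive arrays fall under the letters S and K, with 4 arrays each; the labels do not explain the letters, and each was taken as 1 naive set. All groups share one parent cell line and the same culture text, which names medium lacking both drugs, so it is unclear whether the resistant cells were harvested with drug. Levels are deposited log2 intensities of a gene's array feature; they compare one gene between samples, not one gene with another.

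Arrays of a set correlated between 0.952 and 0.991 over all genes, and the standard deviation (SD) between the 4 arrays of a set had a median of 0.12 log2 over the members (0.01 to 0.41). A technical axis, the direction along which arrays of the same set varied most, was uneven across groups, with mean scores of 6.09 and 5.69 for the low-imatinib, -2.13 and 2.73 for the high-imatinib and 21.2 and 12.3 for the nilotinib pair (line 1 first), against -20.8 and -25.1 for naive S and K. Both naive sets thus scored below all 6 lines. Removing the axis also removes any resistance difference that lies along it, so the technical and resistance parts cannot be told apart. Of 13 listed K-562 markers 5 were measured (GATA1, TAL1, KLF1, EPOR and GFI1B), and their mean level was 8.32 and 8.49 for the low-imatinib, 7.93 and 8.34 for the high-imatinib and 8.33 and 8.26 for the nilotinib pair, against 7.43 and 7.71 for naive S and K. Of 16 markers of other cells 7 were measured, with a mean level of 6.91 to 7.09, 6.85 to 6.92, 6.62 to 7.35, and 7.22 to 7.42 in the same order of groups. Against naive cells, over all 6 lines, TAL1 and GFI1B rose by 1.12 and 1.04 log2 and ALB fell by 0.51 log2 (adjusted p = 0.038, 0.0335 and 0.0484, limma); their part in the results on the members was not tested. Intensities have no zero, so a marker that is off cannot be named. In these bulk samples, fewer cells expressing a gene and less RNA per cell cannot be told apart.

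The promoter windows of 5 members are printed. BNIP3, PGK1, LDHA and ANKRD37 are 4 of the 10 members called higher in high-imatinib line 2 than in line 1. EPAS1 had the largest difference from naive cells on high imatinib. The other members that rose between these lines are not printed. Each window is the 250 bases before the RefSeq start (GRCh38.p14), read 5′ to 3′ along the gene, and capitals mark the core letters of the hypoxia response element: ACGTG or GCGTG, or CACGT or CACGC where the core lies on the other strand. ACGTG and CACGT overlap within CACGTG, which then counts as 2 matches. BNIP3 lies at chr10:131981924-131982173 (minus strand), PGK1 at chrX:78103998-78104247 (plus), LDHA, the first of its 2 windows, at chr11:18394313-18394562 (plus), ANKRD37 at chr4:185396591-185396840 (plus) and EPAS1 at chr2:46297157-46297406 (plus).
BNIP3: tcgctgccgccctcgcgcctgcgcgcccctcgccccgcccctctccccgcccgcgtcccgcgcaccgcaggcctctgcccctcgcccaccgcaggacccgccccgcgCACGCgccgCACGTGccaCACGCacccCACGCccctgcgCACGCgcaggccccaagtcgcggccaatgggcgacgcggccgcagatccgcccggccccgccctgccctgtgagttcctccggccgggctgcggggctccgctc
PGK1: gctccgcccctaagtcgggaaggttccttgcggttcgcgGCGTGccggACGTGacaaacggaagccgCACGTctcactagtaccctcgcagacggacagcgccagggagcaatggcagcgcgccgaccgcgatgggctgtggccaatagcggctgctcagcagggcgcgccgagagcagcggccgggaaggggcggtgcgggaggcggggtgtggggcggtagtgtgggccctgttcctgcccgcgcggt
LDHA: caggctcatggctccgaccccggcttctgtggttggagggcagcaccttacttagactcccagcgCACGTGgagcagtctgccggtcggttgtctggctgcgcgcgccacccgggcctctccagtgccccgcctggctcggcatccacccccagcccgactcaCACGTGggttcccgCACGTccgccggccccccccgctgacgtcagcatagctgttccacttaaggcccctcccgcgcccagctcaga
ANKRD37: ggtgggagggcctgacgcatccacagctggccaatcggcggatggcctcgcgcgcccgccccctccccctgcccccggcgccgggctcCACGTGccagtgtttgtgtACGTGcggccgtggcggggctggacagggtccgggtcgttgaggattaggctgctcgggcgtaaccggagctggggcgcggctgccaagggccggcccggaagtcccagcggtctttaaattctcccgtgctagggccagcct
EPAS1: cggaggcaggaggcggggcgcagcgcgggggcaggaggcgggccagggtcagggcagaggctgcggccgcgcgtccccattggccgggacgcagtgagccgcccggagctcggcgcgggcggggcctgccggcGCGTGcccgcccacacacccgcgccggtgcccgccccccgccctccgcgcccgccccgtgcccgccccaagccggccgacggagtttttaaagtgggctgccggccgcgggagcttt
The BNIP3 window held 6 matches in 5 separate stretches, LDHA 5 in 3, PGK1 3 in 3, ANKRD37 3 in 2 and EPAS1 1. Among the members that rose but are not printed, the LDHB window held 0 matches, that of GPI 1 and that of GAPDH 2. HK1 and MXI1 had several windows, and most of those of HK1 and the first of MXI1 held 0. No window was found for BNIP3L. A window was found for 17 of the 20 measured members, and 14 of these 17 had at least 1 match in any of their windows. The share of all genes counted in that way was not computed. Counted by window, 18 of 29 member windows held a match (62.1%), against 15172 of 35116 windows of all genes (43.2%); ACGTG was in 37.9% against 18.5% and GCGTG in 44.8% against 32.2%. These counts describe letters in a window, not bound sites.

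The first question was whether resistant cells as a whole carried a different level of these genes. BNIP3L, BNIP3 and KDM3A had the largest positive differences from naive cells, and EPAS1, VEGFA and ADM the largest negative ones. Of the 9 glycolytic enzymes 7 differed by 0.26 log2 or less. Some of their features read low, so these small differences do not establish that the mRNA was unchanged. With all 6 lines against both naive sets, 0 of 20 members passed an adjusted p of 0.05 (limma on set means, Benjamini-Hochberg over all genes), where 3.72% of all genes did; 6 of 20 had an unadjusted p under 0.05, against 29.8% of all genes. The difference was positive for 15 members and negative for 5, with a median of 0.22 log2 against -0.03 over all genes. That median was 0.06 after quantile normalization and 0.02 with the technical axis removed. Every line lay above both naive sets for 2 members (17.0% of all genes did) and below both for 3 (15.9%), among them VEGFA, for which 1 line was level with naive K after rounding.

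**Figure D1:**
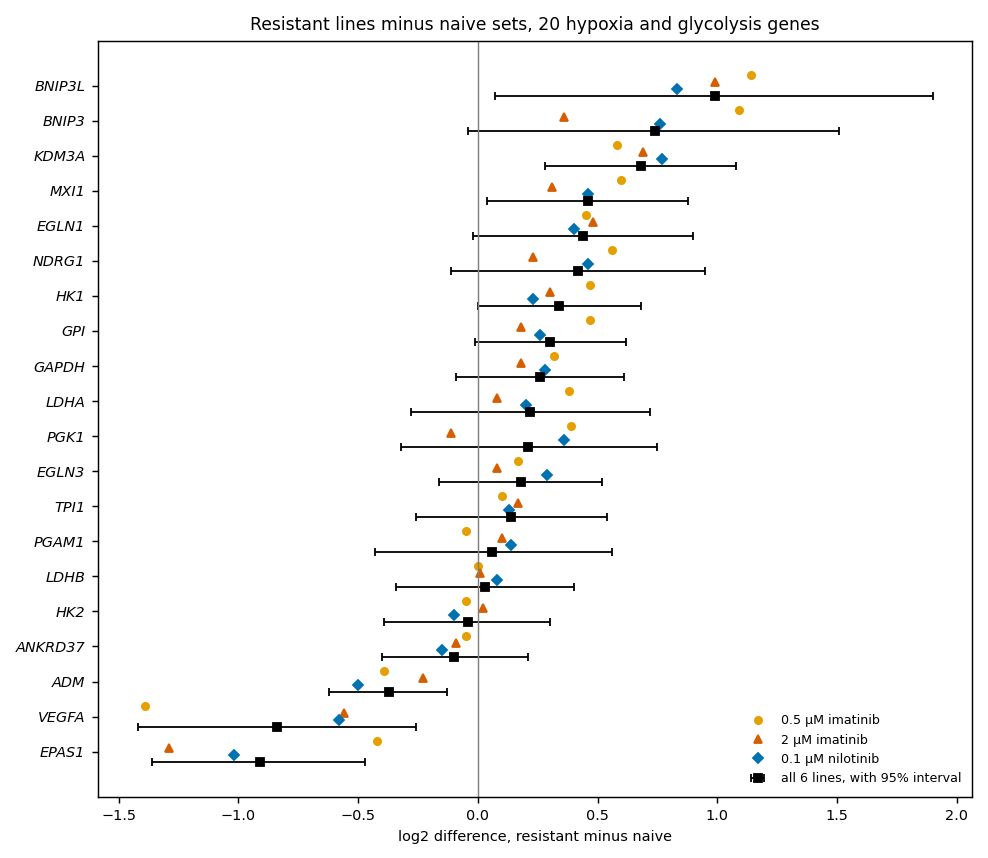
Log2 difference of each resistance from the naive sets (coloured markers) and of all 6 lines together (black squares with 95% confidence intervals from limma) for the 20 measured genes, ordered by the latter. EPAS1, VEGFA and ADM lie below 0 and KDM3A, MXI1 and BNIP3L above it with intervals that exclude 0, yet 0 of the 20 pass after adjustment over all genes.

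Among the enzymes, HK1, the hexokinase that phosphorylates glucose at the entry of the pathway, read 9.42 and 9.69 in the low-imatinib, 9.24 and 9.53 in the high-imatinib and 9.18 and 9.44 in the nilotinib lines, against 8.99 and 9.17 in naive S and K. All 6 lines lay above both naive sets, with nilotinib line 1 only just above naive K. The difference was 0.34 ± 0.14 log2 (SE; adjusted p = 0.171, limma), and it was -0.01 after quantile normalization. GPI, which converts glucose phosphate to fructose phosphate, read 10.40 and 10.15 in the low-imatinib, 9.84 and 10.13 in the high-imatinib and 10.00 and 10.12 in the nilotinib lines, against 9.89 and 9.72 in naive S and K. High-imatinib line 1 lay between the naive sets and the other 5 lines lay above both.

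PGK1, which makes ATP in the lower part of the pathway, read 8.23 and 8.43 in the low-imatinib, 7.37 and 8.28 in the high-imatinib and 8.25 and 8.36 in the nilotinib lines, against 7.97 and 7.90 in naive S and K. High-imatinib line 1 was the lowest of all sets, and the other 5 lines were above both naive sets. LDHA, the lactate dehydrogenase subunit that favours lactate, read 7.09 and 7.50, 6.65 and 7.34, and 7.0 and 7.22 in the same lines, against 7.04 and 6.79 in naive S and K. High-imatinib line 1 was again the lowest set, and nilotinib line 1 lay between the naive sets. GAPDH, TPI1, PGAM1, LDHB and HK2 had differences of 0.26, 0.14, 0.06, 0.03 and -0.04 log2, with the resistant lines overlapping the naive sets.

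Of the 9 enzymes, 8 had a positive difference with a median of 0.21 log2, but only 4 did after quantile normalization (median -0.01) and 4 with the technical axis removed (median 0.00). That axis also separates naive from resistant sets, so its removal cannot show whether the rise was technical. GAPDH, PGK1, LDHA and several other enzymes have near-identical pseudogene copies, so their features may take signal from more than 1 locus. The TPI1, GAPDH and LDHA features averaged 6.66, 6.95 and 7.08, not far above the array medians of 5.85 to 6.11. Whether features at such levels understate a difference in mRNA was not tested. The PGAM1 feature is also uncertain: its 20 nearest named features by number all lie on chromosome 12, while the gene lies on chromosome 10.

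EPAS1 encodes the alpha subunit of HIF-2, one of the oxygen-regulated factors. It read 7.08 and 6.62 in the low-imatinib, 6.17 and 5.78 in the high-imatinib and 6.42 and 6.08 in the nilotinib lines, against 7.41 and 7.13 in naive S and K. All 6 lines lay below both naive sets, with low-imatinib line 1 only just below naive K. The difference was -0.91 ± 0.19 log2 (1.88-fold lower, 95% interval -1.36 to -0.47), and its adjusted p of 0.0507 (limma) just missed the threshold. It passed with the dimmest 40% of genes left out (adjusted p = 0.0422, limma) and after quantile normalization (0.0454), but not with the technical axis removed (-1.35 log2, adjusted p = 0.0903). Without high-imatinib line 1 it was -0.98 log2 and without line 2 -0.85 log2, each of which leaves 1 set in that group.

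EGLN1, the main prolyl hydroxylase that marks HIF for destruction, read 7.73 and 7.53 in the low-imatinib, 7.88 and 7.45 in the high-imatinib and 7.62 and 7.55 in the nilotinib lines, against 7.49 and 6.88 in naive S and K. Naive K was the lowest set by far, and high-imatinib line 2 lay between the naive sets. The difference was 0.44 ± 0.19 log2 (adjusted p = 0.179, limma). EGLN3, a hydroxylase that HIF itself induces, differed by 0.18 ± 0.14 log2, with set means between 5.94 and 6.45 and overlapping groups.

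VEGFA, the growth factor for blood vessels, read 7.53 and 7.50 in the low-imatinib, 8.83 and 7.86 in the high-imatinib and 8.49 and 8.16 in the nilotinib lines, against 8.98 and 8.83 in naive S and K. The low-imatinib lines were the lowest of all; high-imatinib line 1 and naive K had the same level at this rounding, and their arrays overlapped (8.79 to 8.86 and 8.70 to 8.96). The difference over all lines was -0.84 ± 0.24 log2 (adjusted p = 0.0856, limma). Without high-imatinib line 1 it was -1.0 log2 and without line 2 -0.68 log2. Either omission leaves 1 set in that group, so the gap between its 2 lines no longer enters the estimate of the spread.

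ADM, the vasodilator peptide adrenomedullin, read 5.91 and 5.92 in the low-imatinib, 6.03 and 6.11 in the high-imatinib and 5.74 and 5.87 in the nilotinib lines, against 6.24 and 6.36 in naive S and K. All 6 lines lay below both naive sets, by -0.37 ± 0.10 log2 on average (adjusted p = 0.0786, limma). With the technical axis removed the difference was -0.22 log2 (adjusted p = 0.368). ANKRD37, an ankyrin-repeat protein induced by HIF, differed by -0.10 ± 0.13 log2 with overlapping groups. ADM, ANKRD37 and EGLN3 were among the dimmest 40% of genes, with levels near the array medians (5.85 to 6.11). No background signal was available to set such low levels against.

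KDM3A, a histone demethylase induced by HIF, read 7.59 and 7.84 in the low-imatinib, 7.82 and 7.83 in the high-imatinib and 8.21 and 7.61 in the nilotinib lines, against 7.11 and 7.17 in naive S and K. It was the member with the widest empty gap between the resistant lines and the naive sets on the higher side. The difference was 0.68 ± 0.17 log2 (1.60-fold higher, adjusted p = 0.0676, limma). It was 0.41 log2 with the technical axis removed (adjusted p = 0.323, limma) and 0.78 log2 without nilotinib line 2, which leaves 1 set in that group.

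BNIP3 and BNIP3L are receptors on the outer mitochondrial membrane that mark mitochondria for autophagy, and BNIP3L is known for clearing mitochondria from maturing red cells. BNIP3 read 8.56 and 8.39 in the low-imatinib, 7.09 and 8.39 in the high-imatinib and 8.40 and 7.90 in the nilotinib lines, against 7.23 and 7.54 in naive S and K. High-imatinib line 1 was below both naive sets and the other 5 lines were above them. Its difference was 0.74 ± 0.33 log2 (adjusted p = 0.182, limma), and 0.95 log2 without high-imatinib line 1, which leaves 1 set in that group. With the technical axis removed it was 0.30 log2.

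BNIP3L read 10.67 and 10.64 in the low-imatinib, 10.25 and 10.76 in the high-imatinib and 11.16 and 9.54 in the nilotinib lines, against 9.38 and 9.65 in naive S and K. Nilotinib line 2 lay between the naive sets and nilotinib line 1 was the highest set. The difference over all lines was 0.99 ± 0.39 log2 (1.98-fold, adjusted p = 0.149, limma), and 1.26 log2 without nilotinib line 2, which leaves 1 set in that group.

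NDRG1, a stress-response gene induced by HIF, differed by 0.42 ± 0.22 log2 (adjusted p = 0.246, limma), with high-imatinib line 2 (6.77) below both naive sets. MXI1, which competes with MYC for its partner MAX, differed by 0.46 ± 0.18 log2 (adjusted p = 0.147, limma). With the technical axis removed its difference turned from 0.31 to -0.02 log2 on high imatinib and from 0.46 to -0.09 on nilotinib. On low imatinib it kept its sign. MXI1 alone among the members has 2 features; the dimmer one read 6.58 and 6.59 in the low-imatinib, 6.16 and 6.36 in the high-imatinib and 6.30 and 6.43 in the nilotinib lines, against 6.18 and 6.41 in naive S and K. Its difference was 0.11 log2, with overlapping groups, so the 2 features gave unequal sizes.

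**Figure D2:**
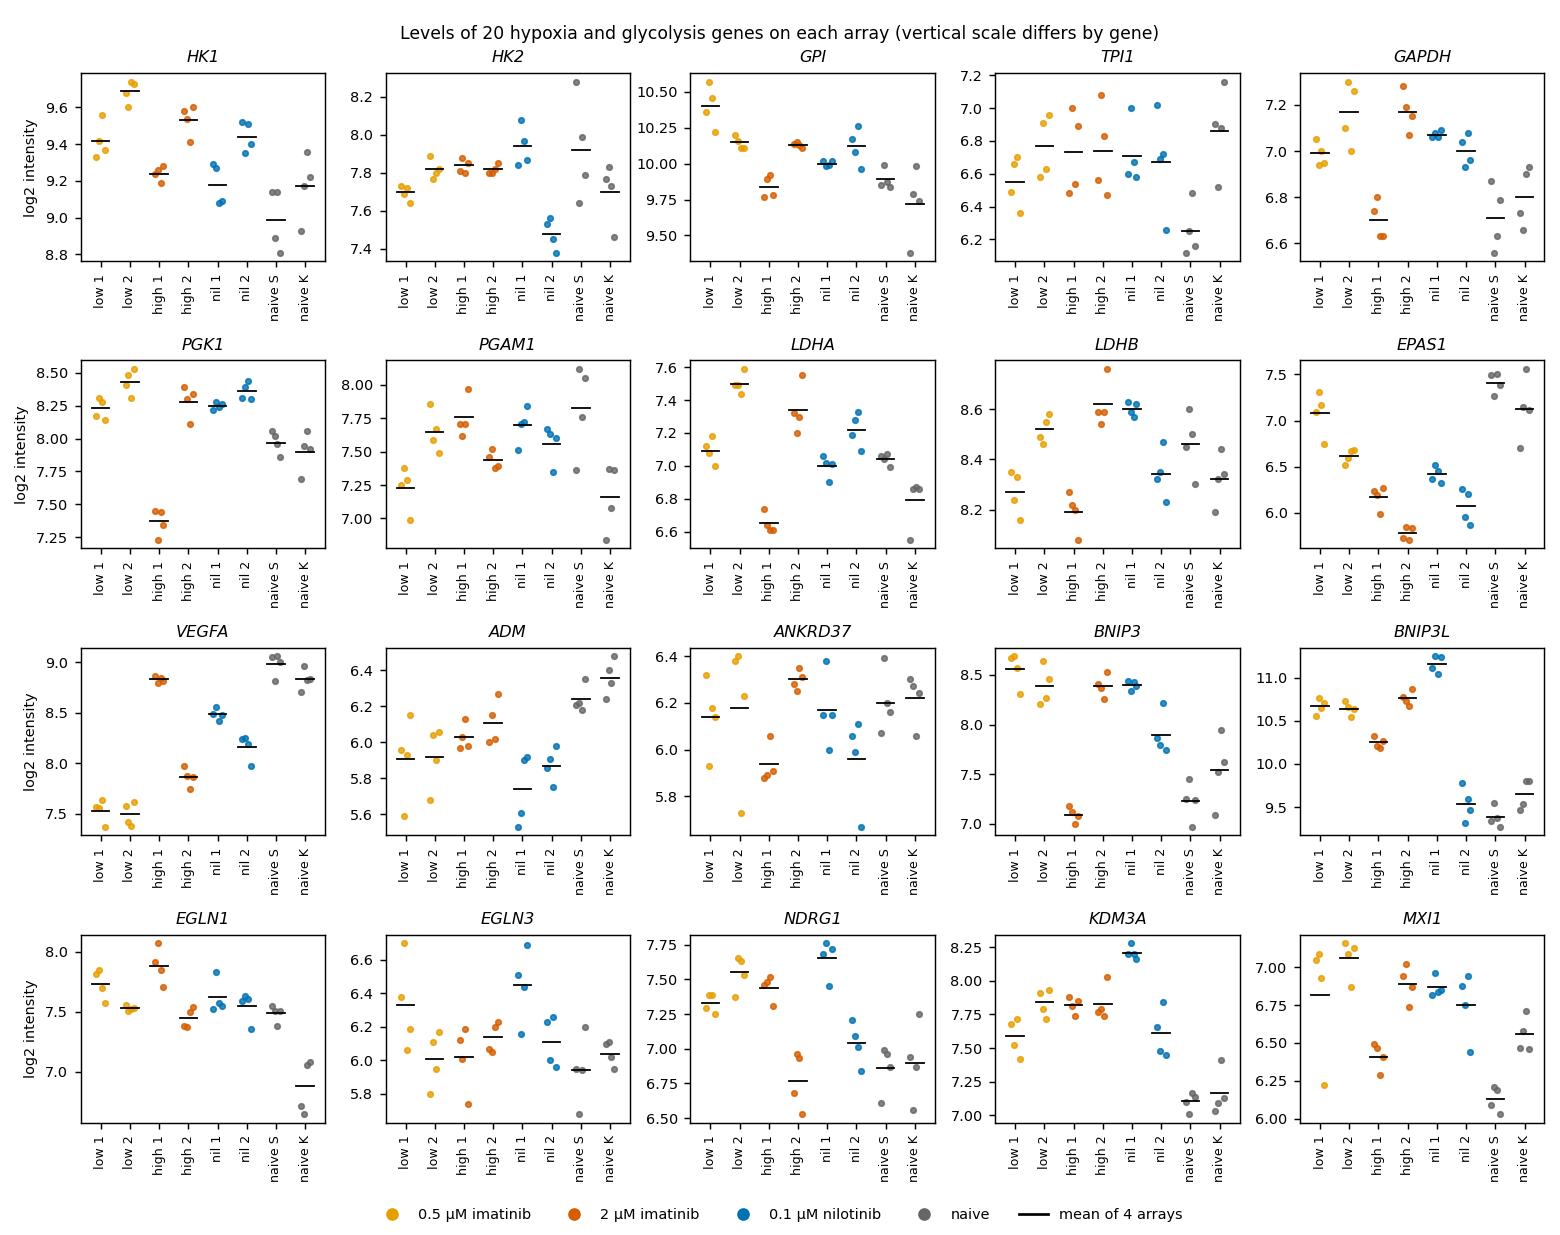
Log2 intensity of each of the 20 measured genes on every array (points) with the mean of the 4 arrays of a set (bars), for the lines resistant to 0.5 µM imatinib, 2 µM imatinib and 0.1 µM nilotinib and for naive S and K; the vertical scale differs by gene. High-imatinib line 1 stands low for PGK1, LDHA and BNIP3, and nilotinib line 2 stands low for BNIP3L among the resistant lines.

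Taken by resistance, the low-imatinib lines had the widest spread of differences from naive cells, with VEGFA at -1.39 ± 0.30 log2 (2.62-fold lower; adjusted p = 0.0898, limma) and both mitophagy receptors near 1 log2 higher. BNIP3L differed by 1.14 ± 0.48 log2 (adjusted p = 0.228) and BNIP3 by 1.09 ± 0.40 (0.190), with both lines above both naive sets. MXI1 differed by 0.60 ± 0.22 log2 (0.29 on its other feature), KDM3A by 0.58 ± 0.21 and NDRG1 by 0.56 ± 0.27, again with both lines above. Of 20 members 0 passed (0.0% of all genes did) and 8 had an unadjusted p under 0.05, against 21.6% of all genes. Both lines lay above both naive sets for 11 members (31.0% of all genes) and below for 4 (31.0%), and the median difference was 0.35 log2 against -0.03 over all genes. That median was 0.18 after quantile normalization and also 0.18 with the technical axis removed. A fit to these 4 sets alone called 5 members (BNIP3, BNIP3L, KDM3A, NDRG1 and VEGFA). Leaving out high-imatinib line 1 or line 2 changed only the estimate of the spread here, with BNIP3 still at 1.09 and VEGFA at -1.39 log2.

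In the high-imatinib lines the largest difference from naive cells was that of EPAS1, at -1.29 ± 0.23 log2 (2.45-fold lower, 95% interval -1.84 to -0.75; adjusted p = 0.131, limma). BNIP3L differed by 0.99 ± 0.48 log2, KDM3A by 0.69 ± 0.21 and HK1 by 0.30 ± 0.18, with both lines above both naive sets. ADM differed by -0.23 ± 0.13 log2 with both lines below, and VEGFA by -0.56 ± 0.30 with line 2 below and line 1 level with naive K. HK1 was at -0.01 log2 after quantile normalization. Of 20 members 0 passed (0.0% of all genes did), with 2 at an unadjusted p under 0.05 against 15.2% of all genes. Both lines lay above for 3 members (24.3% of all genes) and below for 3 (25.9%), where VEGFA counts as below only by a mean that equals naive K at 2 decimals. The median of 0.14 log2 was -0.02 after quantile normalization and 0.01 with the technical axis removed.

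In the nilotinib lines EPAS1 differed from naive cells by -1.02 ± 0.23 log2 (adjusted p = 0.0638, limma) and ADM by -0.50 ± 0.13 (0.0721), while KDM3A differed by 0.77 ± 0.21 (0.0776). BNIP3 differed by 0.76 ± 0.40 log2, NDRG1 by 0.46 ± 0.27 and VEGFA by -0.58 ± 0.30. Of 20 members 0 passed, where 0.443% of all genes did, and 3 had an unadjusted p under 0.05, against 31.9% of all genes. Both lines lay above both naive sets for 10 members (32.7% of all genes) and below for 4 (34.7%). The median of 0.24 log2 turned to -0.01 after quantile normalization and to -0.06 with the technical axis removed; these lines had the highest scores on that axis. EPAS1 passed without high-imatinib line 1 or line 2 (adjusted p = 0.0433 for each), which changed only the estimate of the spread.

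The next question was whether the resistances differed from each other; all 3 of these comparisons called 0 of 20 members and 0.0% of all genes. Between high and low imatinib, EPAS1 was -0.87 ± 0.23 log2 (95% interval -1.42 to -0.32) and VEGFA 0.83 ± 0.30 (0.12 to 1.53), with no overlap between the lines and an adjusted p of 0.934 for each (limma). GPI at -0.29 ± 0.16 and ADM at 0.16 ± 0.13 log2 also did not overlap. For the 3 comparisons between resistances the share of all genes without overlap was not computed, so lack of overlap is only a description here. BNIP3 was at -0.73 ± 0.40 log2, but line 2 of each resistance read 8.39 with overlapping arrays (8.26 to 8.53 on high and 8.21 to 8.64 on low imatinib), so the difference lay mainly in high-imatinib line 1 (7.09). In all, 2 members had an unadjusted p under 0.05, against 4.85% of all genes. Without high-imatinib line 2, which leaves 1 set in that group, the VEGFA difference was 1.31 log2.

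Between nilotinib and low imatinib, VEGFA was 0.81 ± 0.30 log2 (95% interval 0.10 to 1.52; adjusted p = 0.692, limma) and EPAS1 -0.60 ± 0.23 (0.695), without overlap. GPI at -0.21 and ADM at -0.11 log2 did not overlap either, and 2 members had an unadjusted p under 0.05 (6.91% of all genes). Between nilotinib and high imatinib, ADM was -0.26 ± 0.13 log2 (adjusted p = 0.744, limma), without overlap. TPI1, which interconverts the 2 triose phosphates, was -0.04 ± 0.21 log2. Its lines read 6.71 and 6.67 on nilotinib and 6.73 and 6.74 on high imatinib. They did not overlap, but the SD between arrays of these sets was 0.2 to 0.31. In that comparison 0 members had an unadjusted p under 0.05 (6.34% of all genes), and the interval for VEGFA ran from -0.72 to 0.69 log2, wide enough to hold a difference in either direction.

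**Figure D3:**
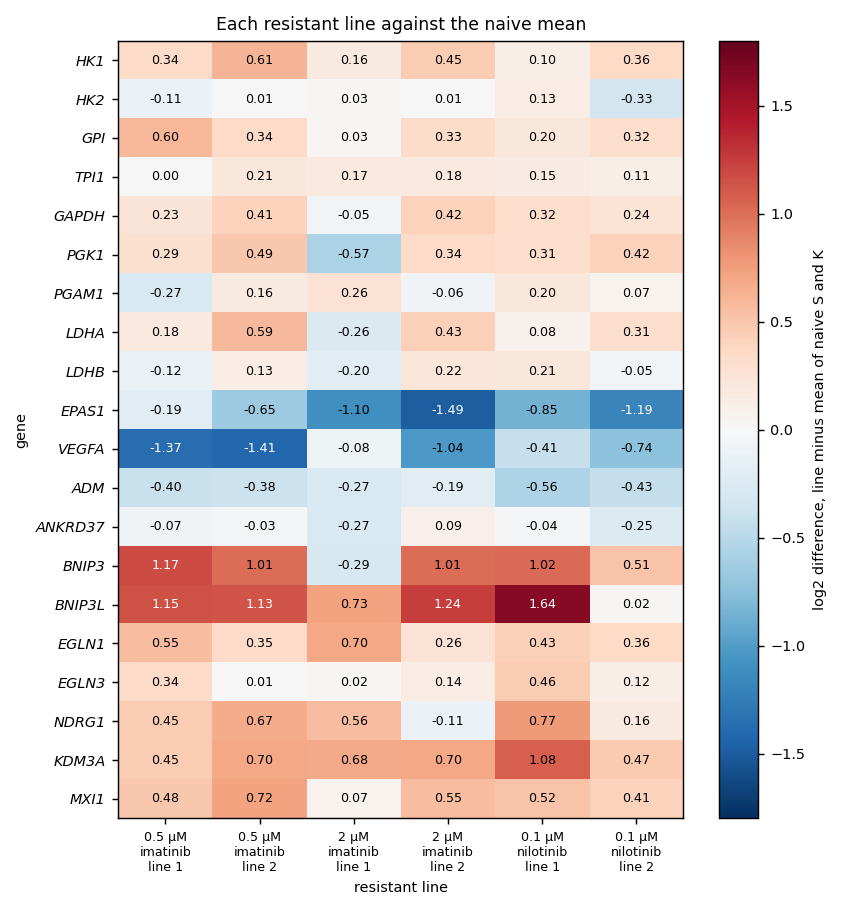
Log2 difference of each of the 6 resistant lines from the mean of naive S and K, for the 20 measured genes, enzymes at the top. EPAS1, VEGFA and ADM are negative in all 6 lines, while PGK1, LDHA and BNIP3 are negative only in high-imatinib line 1.

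Lines of one resistance differed from each other in many members. These tests set 4 technical arrays against 4, so they measure 2 RNA sources against array spread and say nothing of other lines. The high-imatinib lines differed most: 14 of 20 members passed (limma on 32 arrays, adjusted p under 0.05), 10 higher and 4 lower in line 2, where 33.0% of all genes passed. BNIP3 averaged 8.39 in line 2 and 7.09 in line 1, a difference of 1.30 ± 0.13 log2 (2.46-fold, adjusted p = 1.07e-09). PGK1 averaged 8.28 and 7.37 in lines 2 and 1 (0.92 ± 0.09 log2, adjusted p = 1.38e-10), and LDHA 7.34 and 6.65 (0.69 ± 0.09 log2, 5.26e-08). In all 3 genes no array of line 2 overlapped one of line 1.

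On the other side, VEGFA averaged 7.86 in high-imatinib line 2 and 8.83 in line 1, a fall of 0.97 log2 in line 2 (SE 0.09, 1.96-fold, adjusted p = 6.19e-11, limma), and NDRG1 averaged 6.77 and 7.44 in lines 2 and 1 (-0.67 ± 0.12 log2, 3.05e-05). HIF target genes thus moved in both directions between the same lines. Of the 9 enzymes 6 rose in line 2 (PGK1, LDHA, GAPDH, LDHB, HK1 and GPI) and 0 fell. Of the 8 target genes 4 rose (BNIP3, BNIP3L, MXI1 and ANKRD37) and 2 fell (VEGFA and NDRG1). The other feature of MXI1 differed by 0.2 log2. EPAS1 and EGLN1 fell in line 2, by 0.39 and 0.44 log2. Under the scaling alternatives, 14 or 15 members were called, and 14 on leaving out each single array in turn.

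High-imatinib line 1 was the lowest of the 6 resistant lines for 8 of 20 members (GPI, GAPDH, PGK1, LDHA, LDHB, ANKRD37, BNIP3 and MXI1), a place it held for 23.3% of all genes. Among the markers of other cells, EPCAM, an epithelial adhesion gene, read 5.86 in this line and 5.97 in nilotinib line 1, against 7.87 to 9.26 in the other resistant lines; its part in these differences was not tested. KLF1, a red cell factor among the K-562 markers, was lowest in the same line at 7.54, against 8.71 in high-imatinib line 2.

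The nilotinib lines differed in 11 of 20 members, 2 higher and 9 lower in line 2, where 27.6% of all genes passed. BNIP3L averaged 9.54 in line 2 and 11.16 in line 1, a fall of 1.62 log2 in line 2 (SE 0.10, 3.08-fold, adjusted p = 2.22e-15, limma) and the largest difference of any member between lines. NDRG1 averaged 7.04 and 7.65 in lines 2 and 1 (-0.62 ± 0.12 log2, adjusted p = 1.28e-04), KDM3A 7.61 and 8.21 (-0.60 ± 0.10, 8.07e-06), BNIP3 7.90 and 8.40 (-0.50 ± 0.13, 0.0041) and HK2, the inducible hexokinase, 7.48 and 7.94 (-0.46 ± 0.10, 4.78e-04). No array of line 2 reached one of line 1 in BNIP3L, NDRG1, KDM3A, BNIP3 and HK2. Of the 8 target genes 5 fell in line 2 and 0 rose; among the enzymes HK1 and LDHA rose while HK2 and LDHB fell. Nilotinib line 1 was the highest of the 6 lines for 5 members (HK2, BNIP3L, EGLN3, NDRG1 and KDM3A), against 19.6% of all genes. On leaving out single arrays 7 to 9 members passed. The calls that went were LDHA (without 7 of the 8 arrays), EGLN3 and EPAS1 (5 each), HK1 (4) and LDHB (1), so of the enzyme calls only that of HK2 held throughout.

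The low-imatinib lines differed in 5 of 20 members, 4 higher and 1 lower in line 2, where 18.7% of all genes passed. LDHA averaged 7.50 in line 2 and 7.09 in line 1 (0.41 ± 0.09 log2, adjusted p = 0.000731, limma), PGAM1 7.65 and 7.23 (0.43 ± 0.13, 0.0222), HK1 9.69 and 9.42 (0.27 ± 0.09, 0.043) and LDHB 8.52 and 8.27 (0.25 ± 0.08, 0.0301). On leaving out single arrays the HK1 call was lost for 6 of 8 (adjusted p up to 0.117), that of LDHB for 4 and that of PGAM1 for 2, while LDHA and EPAS1 passed each time. EPAS1 averaged 6.62 in line 2 and 7.08 in line 1 (-0.46 ± 0.13, 0.00876). The members that rose were all enzymes, the uncertain PGAM1 feature among them, and 0 of the 8 target genes passed. That depended on the setting. After quantile normalization 8 members passed in all, and 9 with the technical axis removed. The target gene KDM3A was among them in both settings, and MXI1 with the technical axis removed. EPAS1 was the only member that passed with a lower level in line 2 of all 3 resistances. Its falls were 0.46, 0.39 and 0.34 log2 for low imatinib, high imatinib and nilotinib. On nilotinib the EPAS1 call was lost without 5 of the 8 arrays. EGLN1 and VEGFA were also lower in each line 2 but did not pass in all 3. In the other direction, HK1 and LDHA passed with a higher level in line 2 of all 3 resistances. On nilotinib their calls were lost without 4 (HK1) and 7 (LDHA) of the 8 arrays. Line numbers were not taken to pair cultures.

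**Figure D4:**
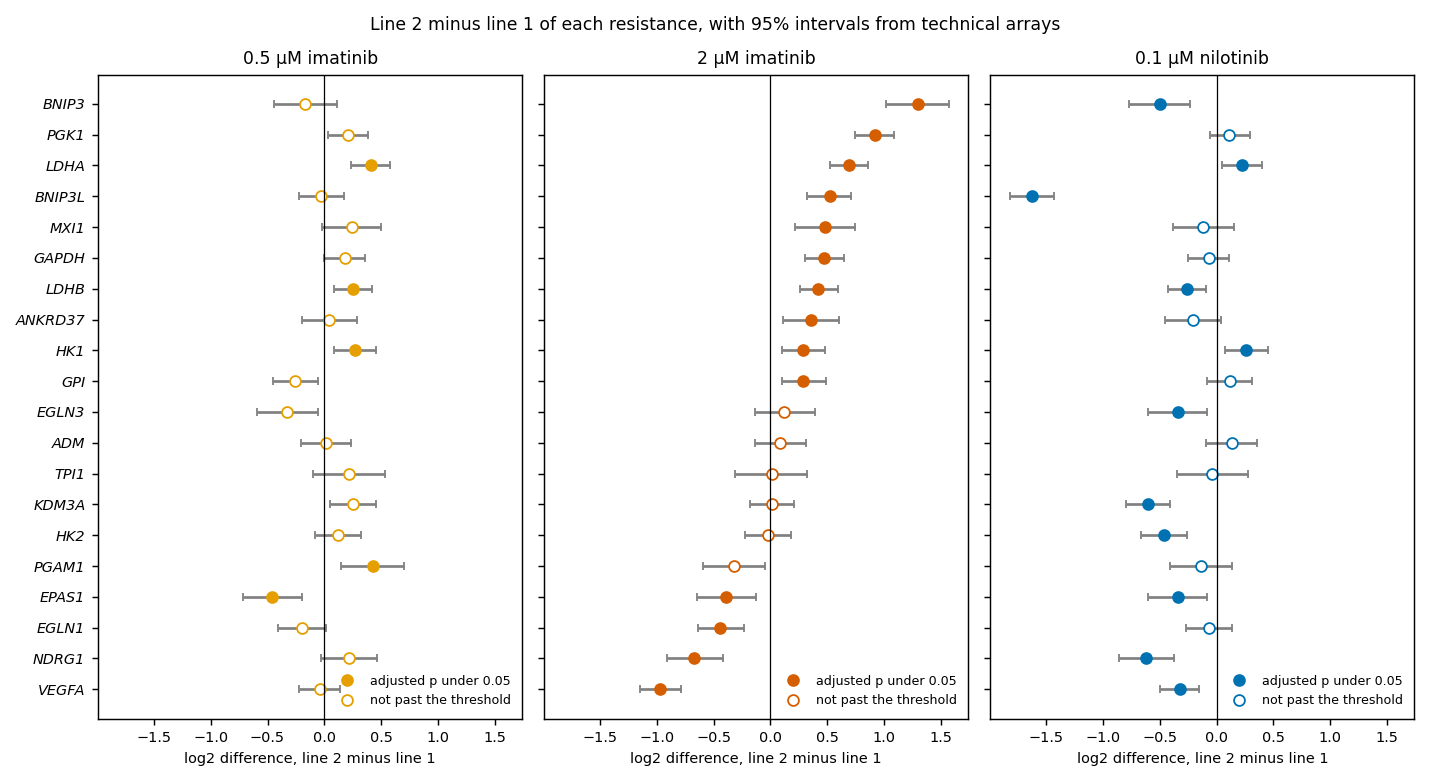
Log2 difference of line 2 from line 1 within each resistance for the 20 measured genes, with 95% confidence intervals from technical arrays; filled points have an adjusted p under 0.05. The high-imatinib panel spans from BNIP3 at 1.30 to VEGFA at -0.97, and the nilotinib panel is set by BNIP3L at -1.62.

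The naive sets gave the background for such gaps, with 5 of 20 members passing between K and S, where 12.4% of all genes did. PGAM1 averaged 7.16 in naive K and 7.83 in naive S (-0.66 ± 0.13 log2, adjusted p = 0.00157, limma), EGLN1 6.88 and 7.49 (-0.61 ± 0.10, 1.97e-04) and LDHA 6.79 and 7.04 (-0.25 ± 0.09, 0.0488). The LDHA call was lost on leaving out 7 of the 8 single arrays, and without array 1 of naive K, which read 6.55, the difference was -0.18 log2 (adjusted p = 0.183, limma). TPI1 averaged 6.86 in naive K and 6.25 in naive S (0.61 ± 0.16, adjusted p = 0.00928, limma). MXI1 averaged 6.56 and 6.13 (0.43 ± 0.13, 0.0283), a call lost without 4 of the 8 arrays, and its other feature differed by 0.23 log2. In these 5 genes the gap between the naive sets was 0.25 to 0.66 log2.

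Other genes of the same pathways were read from fixed lists. Of 43 other glycolysis and pyruvate genes 21 were measured, and 0 passed in the comparison of all resistant lines with naive cells, with a median difference of 0.07 log2 and 5 of the 21 at an unadjusted p under 0.05, against 3.72% of all genes passing and 29.8% at that unadjusted p. The largest was GPD1L, a glycerol phosphate dehydrogenase relative, which read 7.86 and 7.95 in the low-imatinib, 8.44 and 7.84 in the high-imatinib and 7.48 and 7.92 in the nilotinib lines, against 6.99 and 7.03 in naive S and K (0.91 ± 0.19 log2, adjusted p = 0.0507, limma). Of 10 measured pentose phosphate and glycogen genes 1 passed, beside the same 3.72%: GYS1, the glycogen synthase of muscle and most other tissues and also a HIF target, read 6.42 and 6.34 in the low-imatinib, 6.57 and 6.51 in the high-imatinib and 6.54 and 6.57 in the nilotinib lines, against 5.86 and 5.93 in naive S and K. It rose by 0.60 ± 0.10 log2 (adjusted p = 0.0354), with every line above both naive sets.

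Of 7 measured genes among 16 other HIF pathway genes 1 passed over all resistant lines, where 3.72% of all genes did. CREBBP, a histone acetyltransferase that HIF recruits, rose by 0.66 ± 0.12 log2 (adjusted p = 0.0435, limma). CUL2, the scaffold of the VHL ubiquitin ligase, differed by 0.81 ± 0.17 (0.0513) and EP300, the paralog of CREBBP, by 0.89 ± 0.21 (0.0603). Of 31 measured genes among 46 other HIF target genes 1 passed higher and 1 lower, beside the same 3.72% of all genes. GYS1 rose and STC2, a secreted glycoprotein, fell by 0.93 log2 (SE 0.17, adjusted p = 0.0433, limma). The median difference of the 31 genes was -0.03 log2, the same as over all genes. For the 8 target genes among the members it was 0.44 log2, with 0.34 after quantile normalization and 0.16 with the technical axis removed.

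On low imatinib alone, DDIT4, an inhibitor of mTOR signalling and a HIF target, differed from naive cells by -1.77 ± 0.40 log2 (adjusted p = 0.0955, limma), and BSG, the chaperone of the lactate transporters, by 0.82 ± 0.16 (0.0829). TXNIP and ARRDC4, arrestin relatives that restrain glucose uptake, rose by 3.10 ± 0.51 (adjusted p = 0.037) and 2.77 ± 0.47 log2 (0.0375) over all resistant lines. Within a single resistance, 0 genes of these lists passed against naive cells. Of the 31 other HIF target genes, the longest list, 9 on low imatinib, 4 on high imatinib and 7 on nilotinib had an unadjusted p under 0.05 (limma), beside 21.6%, 15.2% and 31.9% of all genes.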

How the data were processed

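The values are log2 intensities per array feature as deposited; per the submitters' processing notes Transcriptome Analysis Console 4.0 was used, and how the arrays were normalized was not given in the sources used here. The log base was inferred from the range of 1.24 to 14.2. Array medians were 5.85 to 6.11. Of 53617 features, 16098 carried 1 gene symbol (all matched by gene identifier to RefSeq, GRCh38.p14) and 37519 were unnamed. A gene was represented by its brightest feature on average (779 genes had several), which left 14884 genes. No filter on low values was applied, so all 20 measured members were tested.

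The 4 technical arrays of a set were averaged, and the 8 set means entered a limma 3.58.1 model (R 4.3.3) of the 4 groups, with 4 residual degrees of freedom, for 7 comparisons. The 4 comparisons of sets within a group used the 32 arrays (24 degrees of freedom). Benjamini-Hochberg adjustment ran over all genes, with a threshold of 0.05; ± is limma's standard error. The steps were tested on simulated data.

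The members and lists were chosen with earlier results of these data known, so counts within them are descriptions. Every member is named. The rule gave full statistics to up to 6 members without overlap in a comparison of set means where 0 passed, and to up to 5 passing members between lines; set levels of some overlapping members are shown as well. The same replicate numbers in different resistances do not pair samples: correlations of same-numbered lines were 0.188, 0.139 and -0.201. The number of arrays and lines limits the precision.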

Additional observations from a re-analysis of the deposited data

Results flagged for a closer look

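Of 160 groups of 4 arrays (20 members in 8 sets), 3 held a single array far from the other 3 by Dixon's criterion, and chance alone would mark about 1 in 20 groups. LDHA read 6.55 on array 1 of naive K, where the others read 6.86 to 6.87; without it the difference of naive K from naive S was -0.18 log2 and no longer passed (adjusted p = 0.183, limma). EGLN1 read 7.83 on array 2 of nilotinib line 1, where the others read 7.52 to 7.57, and 7.36 on array 4 of nilotinib line 2, where the others read 7.59 to 7.63.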

How the results depend on the processing

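No member that had passed changed sign under an alternative, and 136 recomputed counts of members called stayed within 1.5 times the reported count while 30 did not. With each set as a random block over the arrays, the members called against naive cells numbered 8 (low imatinib), 4 (high imatinib), 6 (nilotinib) and 9 (all resistant lines), with 2 between high and low imatinib and 1 between nilotinib and low imatinib, against 0 in each; that fit takes its spread largely from technical arrays. A fit to only the groups compared called 5 on low imatinib, and over all resistant lines 1 member (EPAS1) was called with the dimmest 40% left out and 1 after quantile normalization. Leaving out one set at a time gave 0 to 2 members on low imatinib (2 without high-imatinib line 1 or line 2), 0 to 0 on high imatinib, 0 to 1 on nilotinib, 0 to 3 over all lines (3 without high-imatinib line 1, 2 without line 2 and 2 without nilotinib line 2), 0 to 1 between high and low imatinib, and 0 in the other 2 comparisons; a group left with 1 set is assumed to vary like the others. Between lines, leaving out single arrays gave 3 to 6 members for low imatinib, 14 to 14 for high imatinib, 7 to 9 for nilotinib and 3 to 6 for naive cells. Quantile normalization gave 8 for the low-imatinib and 9 for the naive pair, and removal of the technical axis 9 and 8. The number of all genes called ran from 0 to 2672 on low imatinib, 0 to 1679 on high imatinib, 0 to 3696 on nilotinib and 0 to 3660 over all lines. The paired fit, with the line number as a replicate block, called 0 members between any pair of resistances (medians -0.12, -0.07 and 0.07 log2). For values of single members, 3154 stayed on the same side of the threshold, 84 passed newly and 49 no longer passed. Members that passed in neither fit could change sign, such as HK1 on nilotinib, at 0.23 log2 and at -0.17 after quantile normalization. Where a cause is not named it was not tested. A fit to only the groups compared was not run for all resistant lines, since all groups enter. Only 8 sets and no background signal limit what can be called.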
